A study of Rattus norvegicus with 9 samples.

Results

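Kinesins and cytoplasmic dynein are the motors that carry cargo along the microtubules of an axon, and the genes that encode them were examined in the rat dorsal root ganglion (DRG), which lies beside the spinal cord and houses sensory neurons with their glia. The genes were chosen by symbol (Kif, Klc and Dctn followed by a digit, and all symbols starting with Dync or Dynl) and by level, at least 1 CPM (library-size-scaled counts, 1 CPM resting on 16.8 to 32.3 counts) in at least 3 libraries. Of 30446 genes in the deposited table, 61 matched by symbol and 54 of these reached the level. RNA was sequenced from male Sprague-Dawley rats in 3 groups of 3 libraries: rats with a spinal cord injury (SCI), rats with a sham operation, and naive rats. All libraries, naive ones included, are listed at 30 days after injury. Ganglia of both sides were taken, from the last thoracic and the lumbar levels. The study's text calls the 3 libraries of a group biological replicates. It does not say whether a library came from 1 animal or from pooled animals, and neither the kind of cord injury nor the kind of sham operation is given in the labels used here. In bulk ganglia, fewer cells of a type and less RNA per cell cannot be told apart.

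Most kinesins walk towards the growing ends of microtubules and so carry vesicles, mitochondria and messenger RNA away from the cell body. Cytoplasmic dynein, with its activator dynactin, walks the other way and returns endosomes, growth factor signals and injury signals from the axon to the cell body. A kinesin-1 motor is built from Kif5 heavy chains, which walk, and Klc light chains, which bind cargo. A dynein motor is built from a very large heavy chain, which walks, and from intermediate, light intermediate and light chains, which bind dynactin and cargo. Sensory neurons have some of the longest axons of the body, and defects of several of these genes are known from inherited neuropathies.

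Library totals ran from 16724878 to 32060538 counts and 16627 genes were tested after a filter on low counts. All 54 motor genes were among them. The 3 naive libraries stood apart from all others, also over the motor genes alone, where scores on the first principal component (73.6% of the variance) ran from 0.556 to 1.43 in SCI and from 0.996 to 1.72 in sham, against -2.45 to -2.11 in naive. No batch is named in the labels. Differences from naive therefore cannot be told apart from a batch shared by the naive libraries alone. All 16 sensory neuron markers checked were found in every library, and their summed level ran from 35730 to 36257 CPM in SCI, from 31842 to 46669 CPM in sham and from 32428 to 33901 CPM in naive. Against naive, 3 of the 16 were called higher and 2 lower in SCI (18.8% and 12.5%, against 23.9% and 24.6% of all genes tested). In sham 4 were called higher and 3 lower (25% and 18.8%, against 24.7% and 25.9%). Markers of other cells also differed from naive in the operated groups, and the part of all these markers in the results was not tested. Satellite glia markers (4 of 8 called higher in SCI than in naive, 1 lower) summed to 6947 to 8162 CPM in SCI, 7087 to 9253 CPM in sham and 4249 to 4351 CPM in naive. Fibroblast markers (4 of 6 lower) summed to 2204 to 2754 CPM in SCI, 1923 to 3284 CPM in sham and 3706 to 4328 CPM in naive, and 6 of 9 macrophage markers were higher and 1 lower. Smooth muscle and pericyte markers (5 of 8 higher in SCI and 7 of 8 in sham, none lower) summed to 276 to 296 CPM in SCI, 261 to 361 CPM in sham and 216 to 229 CPM in naive. Of 10 Schwann cell markers, 9 were called lower and none higher in both operated groups. None of these markers was at 0 in any library. Sham libraries were uneven. Over the 40 motor genes at a mean of at least 10 CPM, the median coefficient of variation was 4.06% in SCI, 11.6% in sham and 3.95% in naive.

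Between SCI and sham ganglia no motor gene passed the test. Against naive ganglia, motor genes differed in both operated groups, in both directions. The called heavy chains of kinesin-1 and dynein (Kif5b, Kif5c, Dync1h1 and Dync2h1) were lower in both groups. All 4 kinesin-1 light chains, 4 of 6 dynein light chains and most of the 6 Dctn genes of dynactin were higher. Of 6 dynactin genes with other symbols, 2 were called higher and 3 lower in SCI, and 2 higher and 1 lower in sham. In SCI, 31 of 54 motor genes were called against naive (57.4%), 16 higher and 15 lower, where 48.5% of all 16627 genes tested were called, 23.9% higher and 24.6% lower. In sham, 33 of 54 were called against naive (61.1%), 18 higher and 15 lower, where 50.6% of all genes tested were called, 24.7% higher and 25.9% lower. A share this near the background is no result about motor genes as a set. Their median log2 change was -0.019 in SCI and 0.028 in sham, against 0.011 and 0 over all genes tested. In a test of any difference among the 3 groups 32 of 54 were called, where 48.5% of genes tested were. In both operated groups 31 motor genes were called in the same direction. The matching count over all genes tested is not given here, so the 31 are no result about motor genes as a set. Both comparisons use the same naive libraries and are not independent. At an unadjusted p under 0.05, edgeR had 34 of 54 motor genes in SCI, where 54.8% of genes tested passed, and 37 in sham, where 56.3% passed. The SCI libraries lay above all naive libraries in 20 motor genes and below all in 23, where 32.2% and 31.9% of genes tested did so (64.1% together). Sham libraries lay above all naive ones in 21 and below in 16, where 27.5% and 29.2% did so (56.7% together). Calls are genes with an adjusted p under 0.05 in edgeR's quasi-likelihood test over all genes, with Benjamini-Hochberg adjustment.

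**Figure D1:**
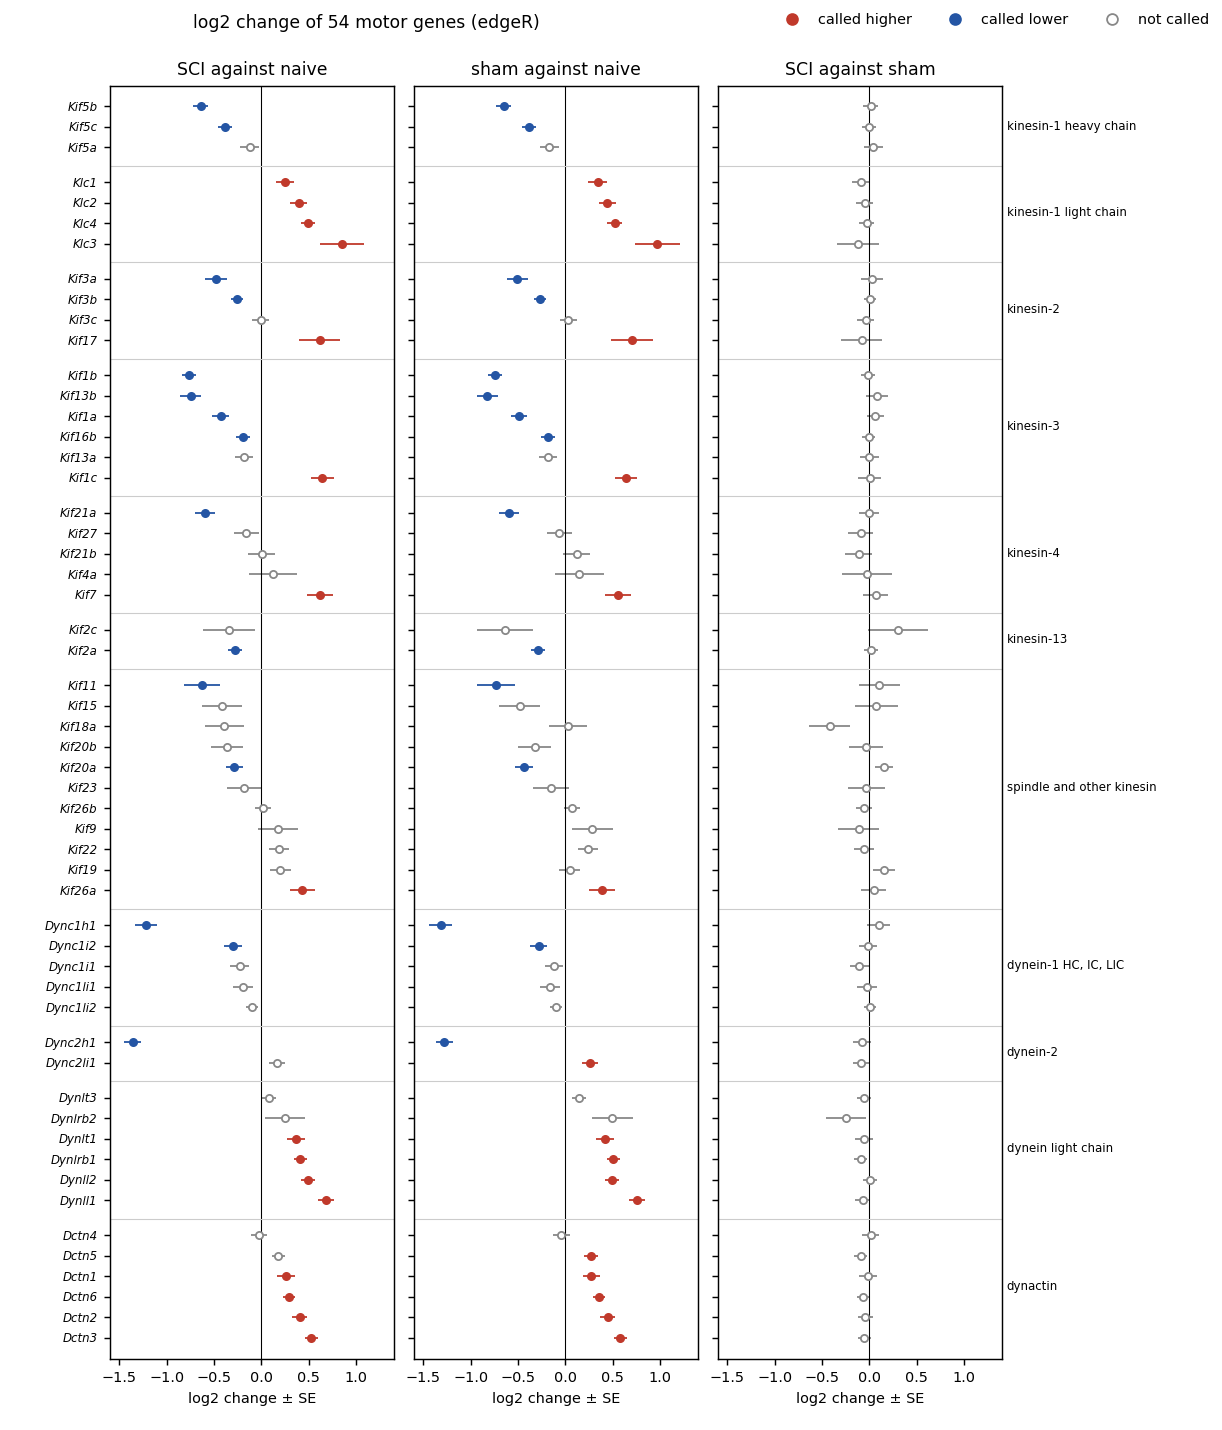
Log2 change with its standard error for each of the 54 motor genes, grouped by family, in SCI against naive (left), sham against naive (middle) and SCI against sham (right), 3 libraries a group. Filled red and blue points are genes called higher and lower and open points are not called. Against naive, the kinesin-1 light chains, dynein light chains and most Dctn genes lie to the right and the heavy chain genes to the left, while no point is filled in SCI against sham.

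The promoters of 4 motor genes are shown, the pair with the smallest p among those lower in SCI than in naive and not specific to cilia (Dync1h1, the heavy chain of cytoplasmic dynein, and Kif1b, a carrier of mitochondria and synaptic vesicle precursors) and the pair with the smallest p among those higher (Dynll1, a dynein light chain, and Dctn3, a dynactin subunit). Each is the stretch of 250 bases before the annotated start in RefSeq on the GRCr8 build, read 5′ to 3′ on the gene's strand. Capitals mark 4 short promoter motifs searched on both strands: the GC box GGGCGG, the CCAAT box CCAAT, the TATA box TATAAA and the cAMP response element (CRE) core TGACG, of which the full site TGACGTCA holds a copy on each strand.
Dync1h1, chr6:135436228-135436477, plus strand: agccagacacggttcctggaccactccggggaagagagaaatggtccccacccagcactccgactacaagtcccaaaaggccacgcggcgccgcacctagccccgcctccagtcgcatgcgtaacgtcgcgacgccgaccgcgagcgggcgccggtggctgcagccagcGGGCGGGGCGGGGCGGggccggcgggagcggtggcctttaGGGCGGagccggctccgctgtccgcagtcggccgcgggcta
Kif1b, chr5:165025849-165026098, minus strand: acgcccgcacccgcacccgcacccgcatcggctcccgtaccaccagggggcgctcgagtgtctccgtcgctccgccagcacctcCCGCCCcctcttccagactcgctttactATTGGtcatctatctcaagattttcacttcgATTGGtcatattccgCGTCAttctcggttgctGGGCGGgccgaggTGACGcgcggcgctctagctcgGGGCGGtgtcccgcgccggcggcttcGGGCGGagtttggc
Dynll1, chr12:46972827-46973076, plus strand: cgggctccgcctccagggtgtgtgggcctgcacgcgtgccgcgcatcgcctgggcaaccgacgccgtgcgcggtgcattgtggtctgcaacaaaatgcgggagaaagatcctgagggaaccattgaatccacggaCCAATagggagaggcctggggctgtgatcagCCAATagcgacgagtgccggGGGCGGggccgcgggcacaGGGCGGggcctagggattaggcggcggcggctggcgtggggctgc
Dctn3, chr5:61684904-61685153, minus strand: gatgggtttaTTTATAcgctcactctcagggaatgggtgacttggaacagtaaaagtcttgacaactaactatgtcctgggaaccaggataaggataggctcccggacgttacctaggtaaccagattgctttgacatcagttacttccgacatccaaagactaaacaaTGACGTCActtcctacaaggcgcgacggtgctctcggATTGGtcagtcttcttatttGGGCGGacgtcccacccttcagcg
Of these, Dync1h1 held 4 GC boxes, of which 3 follow each other closely, and none of the other motifs. Kif1b held 4 GC boxes, 2 CCAAT boxes and 2 CRE cores. Dynll1 held 2 GC boxes and 2 CCAAT boxes. In Dctn3 there was 1 full CRE, 1 CCAAT box, 1 GC box and 1 TATA box, and its GC content of 48.4% was below that of the other 3 (66.4% to 73.2%).

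Promoters were found for 43 of the 54 motor genes, and motor genes called higher and lower in SCI than in naive had promoters of the same median GC content, 63.2% in 11 higher genes and 63.2% in 13 lower genes, against 59.6% over 11213 genes tested that have a promoter in the table. A GC box stood in 7 of the 11 higher genes and 11 of the 13 lower genes, and in 55.4% of the promoters of genes tested. A CCAAT box stood in 5 of 11 and 6 of 13, against 34.6%, and a CRE core in 5 of 11 and 6 of 13, against 26.3%. A TATA box stood in 1 of 11 and 2 of 13, against 7.17%. A full CRE stood in 3 of the 11 higher genes (Dctn3, Klc1 and Kif17), in 1 of the 13 lower genes (Kif5c) and in Kif15, which was not called, against 2.70% of the promoters of genes tested. These matches are letters in a fixed window and not binding sites.

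In kinesin-1, the main carrier of anterograde cargo, 2 of 3 heavy chain genes were lower and all 4 light chain genes higher in both operated groups than in naive. Over all genes tested, 24.6% were called lower and 23.9% higher in SCI, and 25.9% and 24.7% in sham. Kif5b, the heavy chain expressed in most cell types, stood at 297, 262 and 258 CPM in SCI, 272, 290 and 250 CPM in sham and 402, 444 and 429 CPM in naive. All naive libraries lay above all SCI and all sham libraries. For Kif5b, the log2 change was -0.64 (SE 0.08, edgeR adjusted p = 3.15e-05) in SCI and -0.65 (SE 0.08, adjusted p = 2.25e-05) in sham. Kif5c, a neuronal heavy chain, stood at 584, 549 and 538 CPM in SCI, 578, 580 and 521 CPM in sham and 746, 753 and 691 CPM in naive, and again no operated library reached the naive range (log2 change -0.39, adjusted p = 0.000736 in SCI and -0.38, adjusted p = 0.000737 in sham, edgeR).

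Kif5a, the neuronal heavy chain that is mutated in a hereditary spastic paraplegia, stood at 1204, 1217 and 1211 CPM in SCI, 1396, 1112 and 1017 CPM in sham and 1271, 1376 and 1316 CPM in naive. Its SCI libraries lay below all naive libraries, while sham 1 lay above every naive library. Neither difference from naive passed (log2 change -0.13, SE 0.10, edgeR adjusted p = 0.326 in SCI, and -0.17, SE 0.10, edgeR adjusted p = 0.186 in sham). Without sham 1 the sham difference was -0.32 (edgeR adjusted p = 0.000855). The share of Kif5b in the summed CPM of the 3 heavy chains was 13.3% ± 0.786 in SCI, 13.6% ± 1.31 in sham and 17.2% ± 0.511 in naive (SD, n = 3).

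All 4 kinesin-1 light chain genes were called higher in SCI and in sham than in naive. Klc1 stood at 1939, 1993 and 1989 CPM in SCI, 2413, 2090 and 1791 CPM in sham and 1656, 1698 and 1623 CPM in naive, and every operated library lay above every naive library. For Klc1, the log2 change was 0.25 (SE 0.10, edgeR adjusted p = 0.0486) in SCI and 0.34 (SE 0.10, adjusted p = 0.0109) in sham. The SCI call of Klc1 was close to the threshold and was lost without any of the 3 naive libraries, any of the 3 SCI libraries or sham 2 (log2 change 0.23 to 0.27, edgeR adjusted p 0.0705 to 0.158). It was also lost with RLE scaling, the strict filter, thinning to the smallest library total and the replicate block (adjusted p 0.0519 to 0.0633). Its sham call was lost without naive 3 (0.32, adjusted p = 0.0524). Klc2 averaged 546 ± 12.3 CPM in SCI, 565 ± 84.6 CPM in sham and 416 ± 13.8 CPM in naive (log2 change 0.39 in SCI, edgeR adjusted p = 0.00337). Klc4 stood at 44.4, 45.4 and 43.8 CPM in SCI, 49.0, 40.4 and 46.5 CPM in sham and 30.3, 33.9 and 30.8 CPM in naive, with no overlap between operated and naive libraries. For Klc4, the log2 change was 0.49 (SE 0.08, edgeR adjusted p = 0.000211) in SCI. Klc3, near the limit of the level rule at 0.882 to 2.28 CPM, had a log2 change of 0.85 (SE 0.24, edgeR adjusted p = 0.00916) in SCI, and that call was lost without SCI 3 (0.64, adjusted p = 0.052). Its sham call was lost with library totals thinned to the smallest (adjusted p = 0.0613).

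Set against each other, the summed CPM of Kif5a, Kif5b and Kif5c was 81.0% ± 2.84 of that of Klc1 and Klc2 in SCI, 75.5% ± 2.40 in sham and 119% ± 1.71 in naive (SD, n = 3). The highest operated library, SCI 1, stood at 84.3%, against 118% in the lowest naive library. Counts are not scaled to gene length, so that the ratio can be compared between groups but says nothing on the number of chains.

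**Figure D2:**
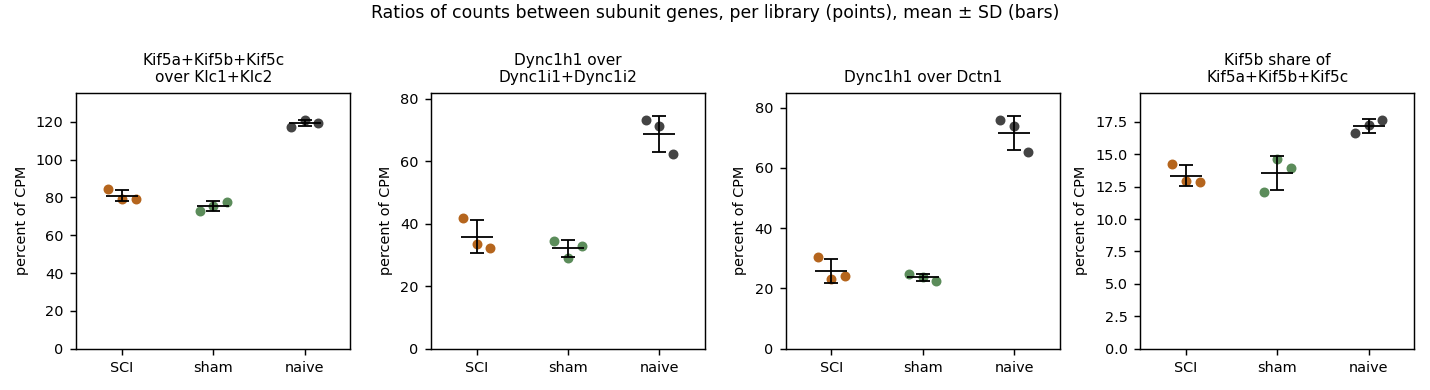
Ratios of CPM between genes of the same motor in each library (points) with mean ± SD (bars, n = 3), SCI and sham left of naive. From left to right, the 3 Kif5 genes over Klc1 and Klc2, Dync1h1 over the 2 intermediate chain genes, Dync1h1 over Dctn1, and the share of Kif5b among the Kif5 genes. In all 4 panels every operated library lies below every naive library.

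In cytoplasmic dynein the heavy chain was lower and 4 of 6 light chains were higher than in naive, in both operated groups. Dync1h1, the heavy chain that holds the motor and one of the largest proteins of the cell, stood at 269, 227 and 227 CPM in SCI, 274, 208 and 195 CPM in sham and 582, 599 and 504 CPM in naive. The highest operated library, sham 1, lay far under the lowest naive library. For Dync1h1, the log2 change was -1.22 (SE 0.12, edgeR adjusted p = 5.94e-06) in SCI and -1.32 (SE 0.12, adjusted p = 2.72e-06) in sham. The other 4 genes of the complex core had smaller log2 changes. Dync1i2, an intermediate chain that docks dynactin, stood at 387, 422 and 439 CPM in SCI, 464, 436 and 360 CPM in sham and 484, 534 and 515 CPM in naive and was called lower in both (log2 change -0.30, edgeR adjusted p = 0.0164 in SCI and -0.28, adjusted p = 0.0202 in sham). Its SCI call was lost without naive 2 or SCI 1 (-0.27 and -0.25, adjusted p = 0.0709 and 0.0746), and its sham call without naive 2, naive 3 or sham 3 (-0.29 to -0.18, adjusted p 0.0505 to 0.0874).

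The neuronal intermediate chain Dync1i1 and the light intermediate chains Dync1li1 and Dync1li2, which bind cargo adaptors, did not pass against naive in either group. Their log2 changes were -0.23, -0.19 and -0.10 in SCI and -0.12, -0.17 and -0.10 in sham (edgeR adjusted p 0.0713 to 0.329). Without sham 1 Dync1i1 and Dync1li1 were called lower in SCI (-0.24 and -0.20, adjusted p = 0.00585 and 0.0360) and in sham (-0.26 and -0.32, adjusted p = 0.00743 and 0.00741). Without sham 3 both were called lower in SCI (-0.23 and -0.19, adjusted p = 0.00755 and 0.0128). Dync1h1 made up 35.8% ± 5.26 of the summed CPM of the intermediate chains in SCI, 32.2% ± 2.77 in sham and 68.8% ± 5.77 in naive (SD, n = 3).

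Dynein light chains, small proteins that link the complex and also bind many other partners, had 4 of 6 genes higher (66.7%), where 23.9% of all genes tested were higher in SCI and 24.7% in sham. In both operated groups these 4 were called higher than in naive and none lower, while Dynlt3 and Dynlrb2 (log2 change 0.25 in SCI and 0.50 in sham) were not called. Dynll1 stood at 453, 478 and 463 CPM in SCI, 432, 483 and 549 CPM in sham and 294, 289 and 284 CPM in naive, so that the lowest operated library was well above the highest naive library. For Dynll1, the log2 change was 0.68 (SE 0.08, edgeR adjusted p = 2.57e-05) in SCI and 0.75 (SE 0.08, adjusted p = 9.59e-06) in sham. Its near copy Dynll2 stood at 1373, 1374 and 1390 CPM in SCI, 1446, 1362 and 1314 CPM in sham and 934, 1020 and 985 CPM in naive. Its operated libraries also lay above all naive ones. For Dynll2, the log2 change was 0.49 (SE 0.07, edgeR adjusted p = 0.000118) in SCI. Since Dynll1 and Dynll2 are close paralogs, reads could be split between them, and the share of Dynll1 in their sum was 25.2% ± 0.556 in SCI, 26.2% ± 3.24 in sham and 22.8% ± 1.01 in naive (SD, n = 3).

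The roadblock-type light chain Dynlrb1 stood at 261, 261 and 280 CPM in SCI, 270, 273 and 312 CPM in sham and 201, 197 and 205 CPM in naive, again without overlap with naive. For Dynlrb1, the log2 change was 0.41 (SE 0.07, edgeR adjusted p = 0.000382) in SCI. The Tctex-type light chain Dynlt1 averaged 24.9 ± 0.275 CPM in SCI, 26.0 ± 3.32 CPM in sham and 19.4 ± 1.49 CPM in naive (edgeR adjusted p = 0.0064 for SCI). Its relative Dynlt3 had log2 changes of 0.08 in SCI and 0.14 in sham (edgeR adjusted p = 0.368 and 0.123); without sham 1 the sham difference was called (0.19, adjusted p = 0.0240).

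Dynactin lets dynein walk far and bind cargo. Of its 6 Dctn genes, 4 were called higher than naive in SCI (66.7%) and 5 in sham (83.3%), and none lower, where 23.9% and 24.7% of all genes tested were higher. Dctn3, of the shoulder of the complex, stood at 126, 130 and 138 CPM in SCI, 132, 141 and 136 CPM in sham and 85.5, 96.6 and 91.7 CPM in naive and did not overlap with naive. For Dctn3, the log2 change was 0.53 (SE 0.07, edgeR adjusted p = 3.45e-05) in SCI. Dctn2 (dynamitin), also of the shoulder, stood at 448, 481 and 512 CPM in SCI, 544, 483 and 455 CPM in sham and 366, 374 and 350 CPM in naive. Again the operated libraries lay above all naive ones. For Dctn2, the log2 change was 0.40 (SE 0.08, edgeR adjusted p = 0.00114) in SCI. Dctn1, the Glued subunit that binds both dynein and the microtubule, stood at 883, 983 and 942 CPM in SCI, 1103, 876 and 867 CPM in sham and 768, 812 and 774 CPM in naive. Operated libraries lay above naive ones here too, by less. For Dctn1, the log2 change was 0.25 (SE 0.09, edgeR adjusted p = 0.0385) in SCI and 0.27 (SE 0.09, adjusted p = 0.0266) in sham. The SCI call of Dctn1 was lost without any of the 3 naive libraries, SCI 2 or SCI 3 (0.22 to 0.28, adjusted p 0.0674 to 0.138) and with the replicate number as a block (adjusted p = 0.0585), and its sham call was lost without naive 1, naive 3 or sham 1 (0.14 to 0.26, adjusted p 0.0697 to 0.0921) and with only the groups compared (adjusted p = 0.0559).

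Of the subunits at the pointed end of dynactin, Dctn6 stood at 98.2, 103 and 109 CPM in SCI, 113, 111 and 102 CPM in sham and 85.9, 86.2 and 82.9 CPM in naive and was called higher in both (log2 change 0.29 in SCI and 0.36 in sham, edgeR adjusted p = 0.00255 and 0.000499). Dctn5 stood at 113, 121 and 127 CPM in SCI, 130, 136 and 119 CPM in sham and 105, 112 and 101 CPM in naive and was called in sham (edgeR adjusted p = 0.00645) and not in SCI (edgeR adjusted p = 0.0537), although without SCI 1, sham 1 or sham 3 the SCI difference passed too (0.17 to 0.22, adjusted p 0.0175 to 0.0418). Dctn4 did not pass, with log2 changes of -0.03 in SCI and -0.04 in sham. Dync1h1 over Dctn1 in CPM was 25.9% ± 4.01 in SCI, 23.7% ± 1.18 in sham and 71.6% ± 5.67 in naive (SD, n = 3).

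**Figure D3:**
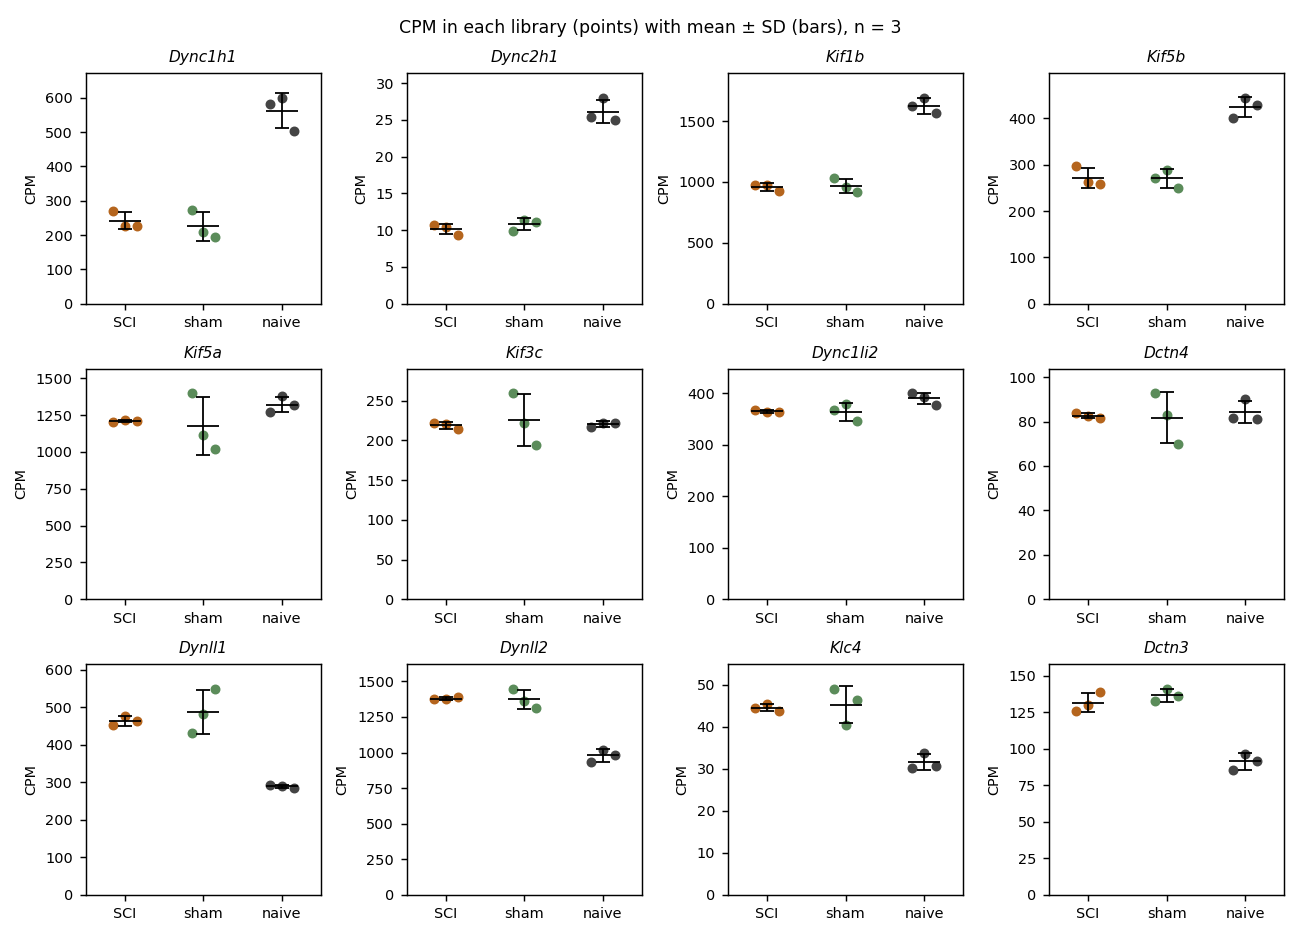
CPM in each library (points) with mean ± SD (bars, n = 3) for 12 motor genes, SCI and sham left of naive, each axis starting at 0. The top row (Dync1h1, Dync2h1, Kif1b, Kif5b) is lower in all operated libraries than in all naive libraries, the bottom row (Dynll1, Dynll2, Klc4, Dctn3) is higher in all of them, and the middle row (Kif5a, Kif3c, Dync1li2, Dctn4) holds genes that were not called.

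Dynein-2, the motor of intraflagellar transport in the primary cilium, had its heavy chain lower as well. Dync2h1 stood at 10.7, 10.4 and 9.32 CPM in SCI, 9.88, 11.4 and 11.2 CPM in sham and 25.4, 28.0 and 25.0 CPM in naive and had the smallest p of all motor genes. For Dync2h1, the log2 change was -1.36 (SE 0.09, edgeR adjusted p = 4.29e-07) in SCI and -1.28 (SE 0.09, adjusted p = 5.24e-07) in sham. Its light intermediate chain Dync2li1 averaged 14.8 ± 0.515 CPM in SCI, 15.8 ± 1.14 CPM in sham and 13.2 ± 0.219 CPM in naive, was called higher in sham (edgeR adjusted p = 0.0203) and did not pass in SCI (edgeR adjusted p = 0.12). The sham call was lost without naive 1, naive 2 or sham 2 (0.23 to 0.25, adjusted p 0.0542 to 0.0588). Over 20 genes of intraflagellar transport, 5 were called higher and 5 lower in SCI than in naive, 25% each, which is the background (23.9% and 24.6% of all genes tested). Of these, Ift22 and Ift27, named after their values were seen, had the smallest p (log2 change 0.60 and 0.59, edgeR adjusted p = 1.38e-05 and 5.19e-05).

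Among the kinesin-3 motors, long-range carriers of vesicles in axons, 4 of 6 were called lower than naive and 1 higher in both operated groups. Of all genes tested, 24.6% were called lower and 23.9% higher in SCI, and 25.9% and 24.7% in sham. Kif1b stood at 977, 973 and 923 CPM in SCI, 1033, 956 and 921 CPM in sham and 1621, 1691 and 1563 CPM in naive, and no operated library came near the naive range. For Kif1b, the log2 change was -0.76 (SE 0.07, edgeR adjusted p = 5.48e-06) in SCI and -0.74 (SE 0.07, adjusted p = 4.98e-06) in sham. Kif1a, the main carrier of dense-core vesicles and synaptic vesicle precursors, stood at 610, 582 and 534 CPM in SCI, 622, 505 and 529 CPM in sham and 737, 813 and 777 CPM in naive. All operated libraries lay below all naive ones. For Kif1a, the log2 change was -0.43 (SE 0.09, edgeR adjusted p = 0.00138) in SCI and -0.49 (SE 0.09, adjusted p = 0.000478) in sham. Kif1c, a vesicle carrier, went the other way, at 151, 137 and 128 CPM in SCI, 110, 135 and 169 CPM in sham and 91.1, 85.6 and 89.5 CPM in naive, with all operated libraries above naive. For Kif1c, the log2 change was 0.64 (SE 0.12, edgeR adjusted p = 0.000705) in SCI.

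Kif13b, which in mice also acts in myelinating Schwann cells, stood at 63.2, 49.1 and 45.7 CPM in SCI, 44.6, 49.0 and 56.8 CPM in sham and 89.1, 90.5 and 86.5 CPM in naive. No operated library reached the naive range. For Kif13b, the log2 change was -0.75 (SE 0.11, edgeR adjusted p = 0.000124) in SCI and -0.83 (SE 0.11, adjusted p = 5.14e-05) in sham. Of 10 Schwann cell markers, 9 were called lower than naive in both operated groups, where 24.6% and 25.9% of all genes tested were. Their sum ran from 19682 to 23883 CPM in SCI, from 18116 to 22646 CPM in sham and from 31060 to 32774 CPM in naive. None was at 0 in any library. Other motor genes fell by similar amounts, such as Kif1b and Kif5b (log2 change -0.76 and -0.64 in SCI). The part of the Schwann cell markers in any of these results was not tested. Kif16b, an endosome motor, was called lower close to the threshold in both groups (log2 change -0.20 and -0.19, 0.0343 in SCI and 0.0415 in sham, edgeR adjusted p). Its SCI call was lost without naive 2, naive 3, SCI 2 or SCI 3 (-0.20 to -0.16, adjusted p 0.0827 to 0.138), and its sham call without naive 2, naive 3, any SCI library or sham 3 (-0.19 to -0.12, adjusted p 0.0505 to 0.167). Under other alternatives it was lost in SCI with upper-quartile scaling or no filter (adjusted p = 0.0536 and 0.0576), and in sham under 7 (adjusted p 0.0509 to 0.122). Kif13a had log2 changes of -0.18 in SCI and -0.18 in sham and did not pass (edgeR adjusted p = 0.136 and 0.136). Without sham 3 both were called (-0.18 and -0.32, adjusted p = 0.0190 and 0.00118), and without sham 1 the SCI difference was called (-0.19, adjusted p = 0.0373).

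In kinesin-2, the partners Kif3a and Kif3b, which form the heterodimer of cilia and axons, were lower. Kif3a stood at 133, 131 and 122 CPM in SCI, 148, 132 and 97.6 CPM in sham and 171, 186 and 179 CPM in naive, with all operated libraries below naive. For Kif3a, the log2 change was -0.48 (SE 0.11, edgeR adjusted p = 0.00365) in SCI. Kif3b averaged 85.1 ± 1.69 CPM in SCI, 84.4 ± 5.59 CPM in sham and 102 ± 2.67 CPM in naive (log2 change -0.26 in SCI, edgeR adjusted p = 0.00394). Kif3c, the alternative partner of Kif3a in neurons, stood at 222, 221 and 214 CPM in SCI, 259, 222 and 194 CPM in sham and 216, 222 and 222 CPM in naive, so that the groups overlapped and the difference was not called (log2 change -0.01, 95% interval -0.20 to 0.18, in SCI). Kif17, a low gene at 0.941 to 2.23 CPM, was called higher in SCI and in sham (log2 change 0.62 and 0.70, edgeR adjusted p = 0.0314 and 0.0174). Its SCI call was lost without naive 1, naive 3, SCI 2 or SCI 3 (0.53 to 0.63, adjusted p 0.0623 to 0.108), with DESeq2 and with library totals thinned to the smallest (adjusted p = 0.0697 and 0.130), and its sham call without naive 1, naive 3 or sham 3 (0.52 to 0.67, adjusted p 0.0516 to 0.0831) and with library totals thinned to the smallest (adjusted p = 0.0539).

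Kinesin-4 split again. Kif21a, which halts microtubule growth at the cell edge, stood at 368, 343 and 304 CPM in SCI, 395, 339 and 283 CPM in sham and 493, 540 and 504 CPM in naive. Every operated library lay below the naive range. For Kif21a, the log2 change was -0.60 (SE 0.11, edgeR adjusted p = 0.000552) in SCI and -0.60 (SE 0.11, adjusted p = 0.000508) in sham. Kif7, a regulator of hedgehog signalling in the cilium, stood at 14.1, 13.0 and 13.2 CPM in SCI, 11.3, 11.4 and 16.0 CPM in sham and 8.14, 8.28 and 9.89 CPM in naive. Every operated library lay above the naive range. For Kif7, the log2 change was 0.62 (SE 0.13, edgeR adjusted p = 0.00203) in SCI and 0.55 (SE 0.14, adjusted p = 0.0043) in sham. Kif21b, Kif27 and Kif4a were not called in either group (log2 change 0.00, -0.16 and 0.12 in SCI). Of kinesin-13, which takes microtubules apart and trims axon branches, Kif2a stood at 58.4, 54.2 and 54.8 CPM in SCI, 59.8, 55.9 and 49.8 CPM in sham and 66.3, 70.4 and 66.1 CPM in naive, below naive in every operated library, and its mitotic relative Kif2c did not pass (log2 change -0.34 in SCI and -0.64 in sham; -1.04, adjusted p = 0.0109, in sham without sham 3). For Kif2a, the log2 change was -0.28 (SE 0.07, edgeR adjusted p = 0.0067) in SCI.

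Of 11 kinesins of the mitotic spindle, of motile cilia or without a transport role, 3 were called in SCI against naive, 1 higher and 2 lower. That is 27.3%, under the 48.5% of all genes tested, so the count is no result about this group. Kif11 (Eg5), the motor that pushes spindle poles apart, stood at 2.97, 2.27 and 2.14 CPM in SCI, 2.53, 2.26 and 2.13 CPM in sham and 4.96, 3.18 and 3.50 CPM in naive and was called lower. For Kif11, the log2 change was -0.63 (SE 0.19, edgeR adjusted p = 0.0162) in SCI and -0.73 (SE 0.20, adjusted p = 0.00797) in sham. Kif20a, needed for the last step of cell division, stood at 11.4, 11.4 and 10.5 CPM in SCI, 9.15, 10.7 and 10.3 CPM in sham and 13.9, 13.7 and 13.1 CPM in naive and was called lower (log2 change -0.29 in SCI and -0.44 in sham, edgeR adjusted p = 0.0182 and 0.00146). Kif26a, a kinesin without motor activity, was called higher (log2 change 0.43 and 0.39, edgeR adjusted p = 0.0166 and 0.0294). All 3 SCI calls were lost when 1 library was left out: Kif11 without naive 1, SCI 2 or SCI 3 (-0.57 to -0.42, adjusted p 0.0584 to 0.0870), Kif20a without naive 1, naive 2 or SCI 3 (-0.28 to -0.25, adjusted p 0.0579 to 0.0706) and Kif26a without naive 2 or SCI 1 (0.40 and 0.39, adjusted p = 0.0584 and 0.0638). The sham call of Kif26a was lost without naive 1, naive 2 or sham 3 (0.24 to 0.38, adjusted p 0.0695 to 0.119).

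Markers of dividing cells were set beside these 11 kinesins, of which 2 were called lower and 1 higher in each operated group. Of 11 markers, 4 were called lower in each operated group than in naive and none higher. That is 36.4%, where 24.6% of all genes tested were called lower in SCI and 25.9% in sham. The sum of the markers ran from 28.9 to 30.5 CPM in SCI, from 26.1 to 36.2 CPM in sham and from 35.2 to 46.3 CPM in naive. Sham and naive sums overlapped, and no marker was at 0 in any library. Their part in the result was not tested. Kif15, Kif18a, Kif20b and Kif23, also spindle motors, and Kif22 and Kif9 were not called in either group. Their log2 changes in SCI were -0.41 for Kif15, -0.39 for Kif18a, -0.36 for Kif20b, -0.18 for Kif23, 0.18 for Kif22 and 0.17 for Kif9. Kif15 was called lower in SCI without sham 1 (-0.42, adjusted p = 0.0401) and in sham without sham 3 (-0.69, adjusted p = 0.0183) or with no filter (adjusted p = 0.0492), and Kif9 higher in SCI without SCI 1 (0.46, adjusted p = 0.0331). Kif19, which shortens motile cilia, and Kif26b were not called either; for Kif19 (log2 change 0.20 in SCI, edgeR adjusted p = 0.158) the SCI difference passed without sham 3 (0.20, adjusted p = 0.0231).

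The level rule itself left out 7 genes matched by symbol (Kif18b, Kif24, Kif6, Kif14, Kif28p, Kif12 and Kif2b). Just outside the rule, Kif18b ran from 0.318 to 1.17 CPM and reached 1 CPM in 1 library. Just inside it, Kif18a ran from 0.890 to 1.32 CPM and reached 1 CPM in 5 libraries, and Dynlrb2 from 0.905 to 1.49 CPM in 7 libraries.

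Partners of the motors were examined as well. Among other dynactin subunits, 2 of 6 were called higher (33.3%) and 3 lower (50%) in SCI than in naive, against 23.9% and 24.6% of all genes tested. In sham 2 were called higher and 1 lower. Actr1b, of the actin-like filament, and the capping protein Capzb were the genes called higher (log2 change 0.36 and 0.30 in SCI, edgeR adjusted p = 0.00149 and 0.00207). Of 35 cargo adaptors and motor regulators, 10 were called higher (28.6%) and 11 lower (31.4%), near the 23.9% and 24.6% of all genes tested. The scaffolds Htt (huntingtin) and Kidins220 had the smallest p: Htt averaged 63.9 ± 2.86 CPM in SCI, 62.1 ± 3.74 CPM in sham and 126 ± 3.95 CPM in naive, and Kidins220 had a log2 change of -0.81 (edgeR adjusted p = 4.28e-07 and 6.43e-06 for SCI).

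Of 17 tubulin genes, 5 were called higher in SCI than in naive (29.4%, against 23.9% of all genes tested) and none lower, led by the nucleating tubulins Tubg1 and Tubg2 (log2 change 0.63 and 0.67, edgeR adjusted p = 4.77e-05 and 9.07e-05). Of 30 microtubule-associated proteins, 7 were higher (23.3%) and 15 lower (50%, against 24.6% of all genes tested), led by the crosslinker Macf1 and the minus-end binder Camsap2. Macf1 averaged 104 ± 3.98 CPM in SCI, 98.6 ± 9.39 CPM in sham and 207 ± 9.53 CPM in naive (SD, n = 3; edgeR adjusted p = 9.16e-07 for SCI), and Camsap2 had a log2 change of -0.88 (adjusted p = 1.08e-06). Of 16 kinesins outside the symbol rule and axonemal dyneins, 3 were higher and 3 lower (18.8% each, under the background), with Kifc2 and the light chain Dnal4 at log2 changes of 0.59 and 0.36 (edgeR adjusted p = 0.000446 and 0.000853).

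The dynein heavy chains are very large proteins and the dynein light chains small ones. Genes of other very large proteins, picked by hand, were also lower in both operated groups. Of 44 tested genes on a hand-written list of very large proteins, written after values of these data were seen and holding no motor gene, 44 were called lower in SCI than in naive (median log2 change -1.12), and 43 in sham (median -1.18), where 24.6% and 25.9% of all genes tested were called lower. Macf1 and Dst of that list also stand among the microtubule-associated proteins. Dync1h1 and Dync2h1, at -1.22 and -1.36 in SCI, lay close to the list's median. Of 48 symbols listed, 43 were matched and these gave the 44 tested genes. Since the list was written with values known, its count is no test, also when set beside the background. The part of transcript or protein length in the result was not tested.

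**Figure D4:**
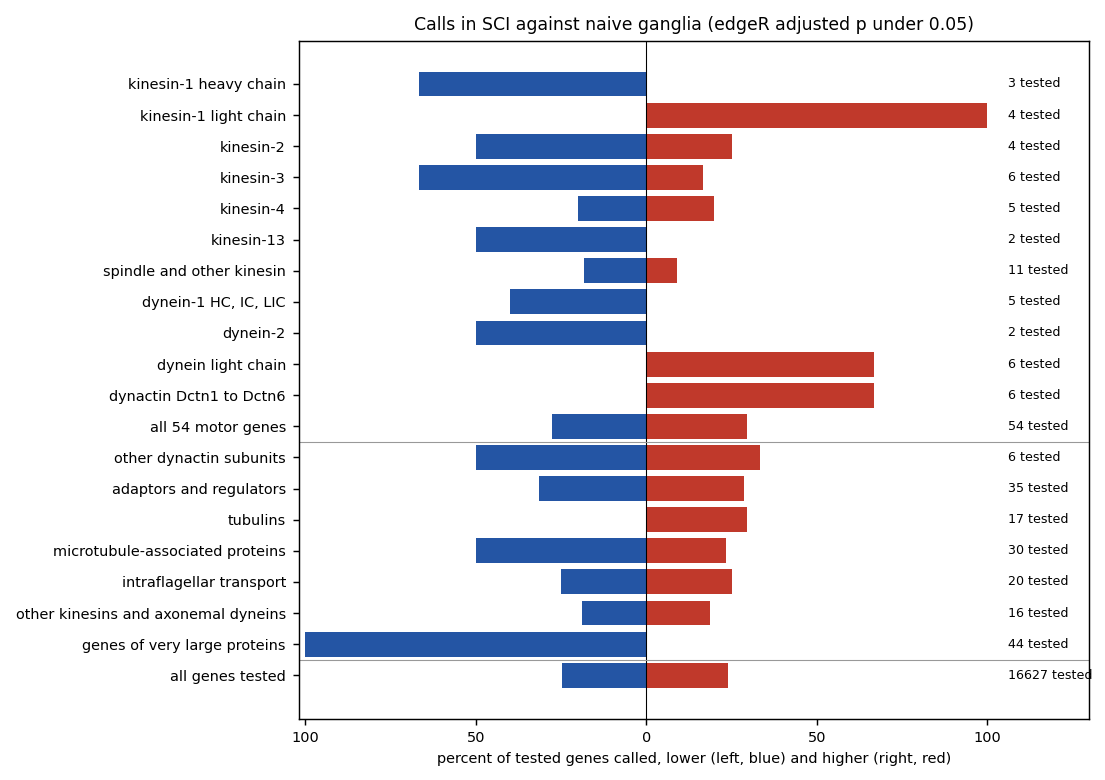
Percent of tested genes called lower (left, blue) and higher (right, red) in SCI against naive, by motor family (top), for partner lists and genes of very large proteins (middle), and for all genes tested (bottom), with the number tested at the right. Among motor families, 4 of 4 kinesin-1 light chains were higher and no kinesin-1 heavy chain was higher. The list of very large proteins holds no motor gene and was written by hand after values of these data were seen. Of its genes, 44 of 44 were lower, where 24.6% of all genes tested were. Because of that choice the count is no test.

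SCI was set against sham to compare cord injury with the operation alone. None of the 54 passed (edgeR), where 0% of the 16627 genes tested passed, and none had an unadjusted p under 0.05, where 3.16% of all genes tested did. DESeq2 and limma-voom also called 0 of 54, where they called 8 and 0 of all genes. Each gave 0 motor genes at an unadjusted p under 0.05. Of all genes, 1.65% of 24329 had such a p in DESeq2 and 3.36% of 16627 in limma-voom. In all 54 genes the 95% interval of the log2 change held 0. It lay within 0.3 of 0 on either side in 34 genes, within 0.5 in 45 and within 1 in all 54.

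Changes of the leading genes between SCI and sham were small. Dync1h1 had a log2 change of 0.10 (95% interval -0.16 to 0.36), Kif5b 0.01, Kif1b -0.02, Dynll1 -0.07 and Dctn3 -0.05. The 5 genes with the smallest p, none of which passed, were Kif18a, Kif20a, Kif19, Dynlrb1 and Dctn5. Kif18a, a motor that aligns chromosomes, stood at 0.896, 0.890 and 0.910 CPM in SCI, 1.14, 1.31 and 1.19 CPM in sham and 1.23, 1.32 and 0.996 CPM in naive (SCI against sham -0.42 on the log2 scale, SE 0.22, edgeR adjusted p = 1). It was the only motor gene whose SCI and sham libraries did not overlap, 0 higher and 1 lower, where 3.3% of genes tested were higher without overlap and 3.11% lower (6.41% together). Kif19 stood at 95.4, 95.4 and 81.7 CPM in SCI, 70.3, 75.7 and 99.2 CPM in sham and 75.5, 77.1 and 85.0 CPM in naive, with sham 3 above every SCI library (log2 change 0.15, SE 0.11). Kif20a, Dynlrb1 and Dctn5 had log2 changes of 0.15, -0.09 and -0.09.

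Sham 1 held the highest sham value of 23 motor genes and the lowest of 22, and sham 3 the highest of 15 and the lowest of 29. For Kif5a, Klc1, Dctn1, Dync1i1 and Dync1li1 sham 1 stood highest of all 3 and sham 3 lowest, and the summed sensory neuron markers stood at 46669 CPM in sham 1, 36395 in sham 2 and 31842 in sham 3. The part of that difference in the motor genes was not tested. Without sham 3, 0 motor genes passed in edgeR but 7 had an unadjusted p under 0.05, against 0 with all libraries. That is 13.0% of motor genes, where 13.8% of the 16849 genes then tested had such a p, so it is no result about motor genes. Over all genes 22 then passed. The 7 were Kif19, Dync1i1, Dync1li1, Klc1, Kif7, Dctn5 and Kif2c. Of these Kif19 had the smallest p, at a log2 change of 0.32 (SE 0.08, edgeR adjusted p = 0.118). Without sham 1, 0 passed and 4 (7.41%) had an unadjusted p under 0.05, where 6.34% of the 16676 genes then tested did, again near the background. Of the 4, Dync1h1 stood at a log2 change of 0.26 (SE 0.09, edgeR adjusted p = 0.771), Kif5a at 0.18, Dynll1 at -0.15 and Kif1a at 0.15. Markers of skeletal muscle summed to 62.5 to 98.5 CPM in SCI, 134 to 154 CPM in sham and 62.5 to 101 CPM in naive, with none of the 10 at 0 in any library. Between SCI and sham 0 of the 10 were called (smallest edgeR adjusted p = 0.442), but all 10 were lower in SCI (median log2 change -0.89). All 10 had an unadjusted p under 0.05 in edgeR, where 3.16% of all genes tested did. In sham 8 of 10 were called higher than in naive, where 24.7% of all genes tested were. The part of the muscle markers in the comparison was not tested.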

How the data were processed

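Whole-number read counts per gene, not normalized, were deposited by the authors for 9 libraries. The submitters' processing notes name FastQC, Trimmomatic, TopHat2, HTSeq and DESeq2, with no versions or genome build given. Per the labels' protocols the kit was TruSeq RNA V2, which does not mark strand, so a gene and an overlapping antisense gene cannot be told apart.

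The members and lists were chosen with earlier results of these data known. edgeR 4.0.16 (R 4.3.3) was fitted on the whole table with TMM scaling and its default filter, with a mean for each group (6 residual degrees of freedom). Benjamini-Hochberg adjustment ran over all genes tested, with calls at 0.05, and CPM use TMM-scaled totals. Values per library are given by rule for the gene with the highest CPM and that with the smallest p of each family, the 8 smallest p in each direction against naive, the 5 smallest between SCI and sham, and 2 genes per partner list. Other members named, and the promoters shown, were chosen after their values were seen. Listed genes were matched by symbol, 4 of them through older RefSeq names (GRCr8). Libraries of 1 group differed by more than sampling noise (chi-square per degree of freedom 3.07 to 40.4). Alternatives tried were other scalings (RLE, upper-quartile), no filter or a strict one, DESeq2 1.42.0, limma-voom 3.58.1, only the groups compared, a replicate block, each library left out, counts thinned so that all library totals match the smallest, and a threshold of 0.1. The planned correction for coding length was not run, since no coding lengths were used here.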

Additional observations from a re-analysis of the deposited data

How the results depend on the processing

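Under all 19 alternatives 0 motor genes were called between SCI and sham. Against naive, the count stayed within 1.5 times that of the main test. In SCI (31 in the main test) it was 29 to 39 over 10 alternatives in test, scaling, filter, library total, threshold and libraries fitted. It was 24 to 36 with each of the 9 libraries left out. In sham (33 in the main test) these counts were 30 to 37 and 28 to 36. The count over all genes moved too. In SCI, the 39 came with 9674 of 16557 genes tested called (only the groups compared), and the 24 with 6745 of 16835 (without SCI 3). In sham, the 37 came with 9584 of 16627 (threshold 0.1) and the 28 with 7274 of 16623 (without naive 3). These ranges are no result about motor genes as a set. All 31 motor genes called in SCI and all 33 called in sham kept their direction under all 19, and 22 and 25 of them were called under every one. The matching counts over all genes tested are not given here, so these too are no result about motor genes as a set. The median log2 change of the 54 genes moved between -0.069 and 0.005 in SCI against naive, between -0.034 and 0.054 in sham against naive, and between -0.058 and 0.010 in SCI against sham when each library was left out, so its sign is not settled. With the replicate number as a block, 29 and 32 motor genes were called in SCI and sham against naive. Of the 16627 genes tested, 7848 and 8153 were then called. Between SCI and sham 0 motor genes and 0 of all genes were called. Klc1 and Dctn1 were lost in SCI (adjusted p = 0.0633 and 0.0585) and Kif16b in sham (0.0565). The labels do not say that a number marks shared animals, and deviations of same-numbered libraries correlated between -0.0946 and 0.124, so the numbers were not taken to pair the samples. With only SCI and naive fitted, Dctn5, Dync1i1, Dync1li1, Dync1li2, Kif13a, Kif15, Kif19 and Kif5a were called too (adjusted p 0.000168 to 0.0379), and Dctn5 with upper-quartile scaling (0.0374). A coding-length correction was planned and not run. Scaling moved the median of all genes by less than 0.1. With plain library totals in place of TMM the level rule also gave 54 genes. Depth limits genes near 1 CPM, where intervals in SCI against sham reached -0.885 and 0.980.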
